A study of Mus musculus with 21 samples.

Results

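Fc receptors and phagocytic uptake receptors were followed across mouse spinal cords in which Tardbp, the gene of the RNA-binding protein TDP-43, had been deleted with Cnp-Cre. The set comprised 10 genes, Fcgr1, Fcgr2b, Fcgr3, Fcgr4, Fcer1g, Mertk, Axl, Msr1, Cd68 and Cd36, taken by gene symbol from the 25127 genes of the deposited per-library values. Bulk RNA-seq had been made from frozen spinal cord of C57BL/6 mice, 1 mouse per library, 21 libraries in all. The cKO mice carried Cnp-Cre with both Tardbp alleles floxed (Tardbp-fl/fl), the cHET mice carried Cnp-Cre with Tardbp-fl/+, and the controls were Tardbp-fl/fl without Cre. At P21 each genotype had 4 mice aged 21 days, of which 2 were female and 2 male. At P60 the 3 cKO mice were males of 61 to 64 days and the 3 cHET mice males of 60 to 65 days, whereas the 3 controls were females of 74 days. Genotype therefore cannot be told apart from sex and age where P60 controls are compared, and cHET was the sex-matched comparison. P21 and P60 libraries came from different kits (Illumina TruSeq and NEXTflex Rapid Directional), so levels are compared within an age, and age and kit cannot be told apart.

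Fc gamma receptors bind the constant part of IgG antibodies and are carried in nervous tissue mainly by microglia and other macrophages. Fcgr1, Fcgr3 and Fcgr4 are activating and signal through the shared gamma chain encoded by Fcer1g, while Fcgr2b is the inhibitory receptor that dampens them. Mertk and Axl are receptor tyrosine kinases of the TAM family, which engage dying cells and debris through the bridging ligands Gas6 and protein S. Msr1 and Cd36 are scavenger receptors for modified lipoproteins and lipids, and Cd68 is a lysosomal membrane glycoprotein used as a marker of phagocytes. Cnp-Cre acts in cells of the oligodendrocyte lineage, which are not the usual source of these receptors. The cord was not sorted by cell type, so a change in the number of cells of a type cannot be told apart from a change in RNA per cell.

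Each deposited value is named as reads per base after normalization and scaling. How the scaling was done is not given in the sources used here. Ranks of abundance, shares and ratios between genes therefore assume that gene length was accounted for, which was not tested. Library sums of these values ranged from 26908290 to 29206779 for P21 cords and from 12488935 to 13798772 for P60 cords, and the read depth behind them is unknown. Tardbp was at 1639 to 1880 in P21 cKO cords, against 2030.2 to 2236 in cHET cords and 2155 to 2415 in controls. The P60 range was 783 to 831 in cKO cords, against 906 to 932 in cHET cords and 828 to 937 in controls. A value per gene cannot show the deleted exon apart from the rest of the transcript, and the cord also holds cells without Cre. Cnp, whose locus drives the Cre, was at 47387 to 57530.2 in P21 cKO cords, 44181 to 49396 in cHET cords and 76936 to 88022 in controls. The 8 Hox genes used as markers of cord position were above 0 in all groups and summed to 10268 to 11235 in P21 cKO cords, against 11474 to 13059.8 in cHET cords and 11649 to 12373 in controls. One P21 cHET library (replicate 1) stood apart, with a summed level of 8 forebrain genes of 1257 against 236 to 334 in the other 11 P21 libraries. One P60 control library (replicate 1) held a summed level of 5 erythrocyte genes of 42975 against 3497 to 11062 in the other 8. Without that cHET library all 10 receptor genes were still called at P21 and their log2 changes against cHET moved by -0.08 to 0.20. Without that control library 9 genes were still called against control at P60, and the log2 changes against control moved by -0.21 to 0.57. Msr1 is among these 9, but it was tested at P60 through its cKO libraries alone and so adds no support.

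All 10 receptor genes were higher in cKO than in cHET cords at P21, and 8 of 10 at P60, by limma with Benjamini-Hochberg adjustment over all genes tested and a threshold of 0.05. Of all genes tested, 12.6% were called higher in cKO at P21 and 13.4% at P60. Every cKO library lay above every cHET library for 10 genes at P21 and 9 at P60, against 12.7% and 20.6% of all genes. Against controls, 10 genes were higher at P21 and 9 at P60, where 14.6% and 14.5% of all genes were. Every cKO library lay above every control library for 10 and 9 genes, against 15.0% and 22.0% of all genes. All 10 passed the filter on low values at both ages, but Msr1 passed at P60 through its 3 cKO libraries alone, so that its P60 call adds no support. Among the 9 other genes 7 were called higher than in cHET and 8 higher than in control at P60, and cKO libraries lay above all cHET and all control libraries for 8. The median log2 change against cHET was 2.86 for the 10 genes at P21 and 2.11 for those 9 at P60, where the medians of all genes tested were -0.01 and 0.00.

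**Figure D1:**
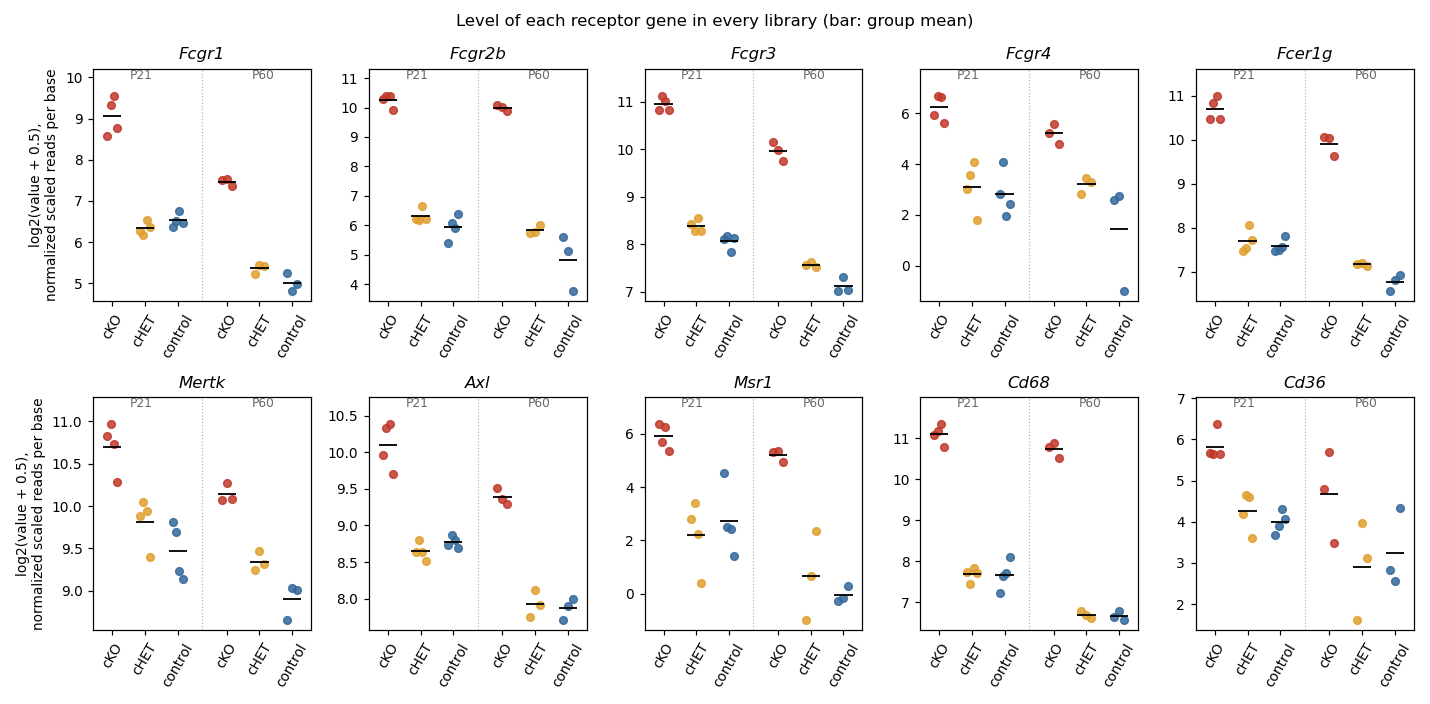
Level of each receptor gene in every library, as log2(value + 0.5) of normalized scaled reads per base, by genotype at P21 (left of the dotted line) and P60 (right); points are libraries and bars are group means. Every cKO library lies above every cHET and control library of its age for 9 of the 10 genes, and Cd36 overlaps at P60.

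The 250 bases before the RefSeq start sites of the genes were read for what the genes share outside their expression. The promoters of 4 genes are shown because they carry the short core of PU.1, a transcription factor of myeloid cells (letters GAGGAA, or TTCCTC on the other strand, in capitals). The sequences are from RefSeq on GRCm38.p6 and run 5′ to 3′ on the strand of each gene. They are Fcgr1 on the minus strand (chr3:96293970-96294219), Fcgr3 on the minus strand (chr1:171059395-171059644), Fcgr4 on the plus strand (chr1:171018676-171018925) and Cd68 on the minus strand (chr11:69666171-69666420).
Fcgr1: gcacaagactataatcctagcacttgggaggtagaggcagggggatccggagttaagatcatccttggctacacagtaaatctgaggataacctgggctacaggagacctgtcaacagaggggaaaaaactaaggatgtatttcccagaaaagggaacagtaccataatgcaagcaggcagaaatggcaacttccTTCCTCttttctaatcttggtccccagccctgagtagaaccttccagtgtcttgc
Fcgr3: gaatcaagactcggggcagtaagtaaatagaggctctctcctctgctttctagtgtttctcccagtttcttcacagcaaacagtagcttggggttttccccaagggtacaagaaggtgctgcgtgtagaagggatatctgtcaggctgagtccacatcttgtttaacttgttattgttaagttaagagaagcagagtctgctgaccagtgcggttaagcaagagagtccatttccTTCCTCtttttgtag
Fcgr4: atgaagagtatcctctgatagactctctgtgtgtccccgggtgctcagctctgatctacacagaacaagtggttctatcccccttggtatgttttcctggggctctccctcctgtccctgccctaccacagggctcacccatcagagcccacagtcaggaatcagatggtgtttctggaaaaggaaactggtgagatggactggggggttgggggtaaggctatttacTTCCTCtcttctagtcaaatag
Cd68: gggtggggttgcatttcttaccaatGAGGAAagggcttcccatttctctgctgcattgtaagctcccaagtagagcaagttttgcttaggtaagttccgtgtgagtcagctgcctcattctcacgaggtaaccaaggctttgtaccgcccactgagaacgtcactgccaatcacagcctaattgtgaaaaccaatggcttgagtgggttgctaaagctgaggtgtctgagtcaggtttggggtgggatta
A promoter was found in the RefSeq table for 9 of the 10 genes, and the PU.1 core occurred on either strand in 5 of them, Fcgr1, Fcgr3, Fcgr4, Axl and Cd68. The same letters occurred in 23.3% of all 32817 promoter windows of that length. It lay 55 to 50 bases before the start in Fcgr1, 15 to 10 in the shown one of 2 RefSeq starts of Fcgr3, 22 to 17 in Fcgr4 and 225 to 220 in Cd68. These are matches of letters, with no binding measured.

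Fcgr1, Fcgr3 and Fcgr4, the activating IgG receptors, and Fcer1g, their signalling chain, were all higher in cKO than in cHET cords at P21, and all but Fcgr4 at P60. Fcgr3 (ENSMUSG00000059498), a low-affinity receptor, was the most abundant IgG receptor of the 4 at P21, with 1804, 2239.9, 2057 and 1805 in cKO cords, 345, 312, 374 and 311 in cHET cords and 276, 287, 228 and 281 in controls. The cKO libraries stood well clear of both other groups, and the log2 change against cHET was 2.55 ± 0.10 (SE, limma adjusted p = 6.4e-10). In P60 cords it was at 1136, 1015 and 859 in cKO, against 190.2, 197 and 183 in cHET and 129, 159 and 131 in controls, a log2 change against cHET of 2.39 ± 0.12 (limma adjusted p = 1.4e-07). Again no cKO library overlapped another genotype.

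Fcgr1 (ENSMUSG00000015947), the high-affinity IgG receptor, was at 381, 645, 754 and 436 in P21 cKO cords, against 76.7, 71.3, 91.6 and 82.2 in cHET cords and 81.5, 90.9, 107 and 88.2 in controls. No cKO library overlapped a cHET or control library, and among cKO cords the 2 females (381 and 436) were lower than the 2 males (645 and 754). The log2 change against cHET was 2.73 ± 0.19 (SE, limma adjusted p = 1.0e-07), that is 6.62-fold. At P60 the values were tighter, with 182, 184 and 165 in cKO, 36.5, 42.9 and 42.5 in cHET and 37.2, 27.4 and 31.2 in controls. The P60 log2 change against cHET was 2.11 ± 0.15 (limma adjusted p = 2.4e-06).

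Fcgr4 (ENSMUSG00000059089), an activating receptor of inflammatory phagocytes, was far less abundant. It was at 60.9, 103, 100.2 and 48.6 in P21 cKO cords, against 7.54, 11.3, 16.3 and 2.98 in cHET cords and 6.58, 16.7, 3.4 and 4.9 in controls. The low libraries varied several-fold among themselves, but none reached the cKO range, and the log2 change against cHET was 3.12 ± 0.52 (SE, limma adjusted p = 5.5e-04). At P60 it was at 37.0, 47.7 and 27.1 in cKO, 6.66, 10.4 and 9.44 in cHET and 5.46, 6.24 and 0 in controls. The cKO libraries lay above all others, but the log2 change against cHET, 2.0 ± 0.82, did not pass (limma adjusted p = 0.11). The control library listed at 0 entered the shared spread of that fit: without it the adjusted p against cHET was 0.0014, and the log2 change against control fell to 2.54, against 3.76 with it.

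Fcer1g (ENSMUSG00000058715), whose gamma chain carries the activating motif used by all 3 activating receptors, was at 1419.6, 1824, 2051 and 1413 in P21 cKO cords. It was at 176, 186, 268 and 211 in cHET cords and 177, 180.4, 189 and 225 in controls. Every cKO library was several-fold above every other P21 library, with a log2 change against cHET of 2.99 ± 0.15 (SE, limma adjusted p = 4.4e-09). At P60 Fcer1g was at 1062, 1054 and 797 in cKO, 144, 146 and 139 in cHET and 93.5, 111 and 121 in controls, and the log2 change against cHET was 2.747 ± 0.13 (limma adjusted p = 1.2e-07). Its profile was the closest among the other receptor genes to that of Fcgr3, with a root mean square difference of 0.23 log2 units over the 21 libraries after centring within each age.

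Fcgr2b (ENSMUSG00000026656), the inhibitory receptor, showed a larger log2 change than any activating IgG receptor against either genotype at P21 and P60. It was at 1259, 1355, 1329.6 and 967 in P21 cKO cords, against 73.5, 71.7, 99.6 and 72.9 in cHET cords and 41.9, 66.4, 59.8 and 82.1 in controls. The gap between the lowest cKO library and the highest library of the other genotypes was nearly an order of magnitude. The log2 change against cHET was 3.94 ± 0.19 (SE, limma adjusted p = 3.3e-09), that is 15.4-fold with a 95% interval of 11.7 to 20.3. At P60 Fcgr2b was at 1074, 1025 and 936 in cKO, 53.0, 54.1 and 63.9 in cHET and 48.4, 34.7 and 13.03 in controls. That was a 17.6-fold difference from cHET (95% interval 10.2 to 30.5, limma adjusted p = 9.5e-06) and 35.4-fold from control (20.4 to 61.3, limma adjusted p = 1.7e-06).

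The make-up of the IgG receptor signal also differed between genotypes. The 4 receptor genes summed to 3257 to 4344 in P21 cKO cords, 467 to 581 in cHET cords and 398 to 461 in controls, and Fcgr2b made up 29.7 to 35.9% of that sum in cKO cords, against 14.6 to 17.1% in cHET cords and 10.3 to 18.0% in controls. At P60 the Fcgr2b share was 44.2 to 47.1% in cKO cords, against 17.8 to 21.4% in cHET and 7.42 to 22.04% in controls, so cKO was apart from the other genotypes at both ages. Fcgr3 was the largest part in each cHET and control library. At P21 it held 48.5 to 55.4% of the sum in cKO cords, against 64.3 to 68.6% in cHET cords and 57.2 to 68.0% in controls. At P60 it held 43.2 to 46.8% in cKO cords, against 61.2 to 66.4% in cHET cords and 58.6 to 74.8% in controls.

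**Figure D2:**
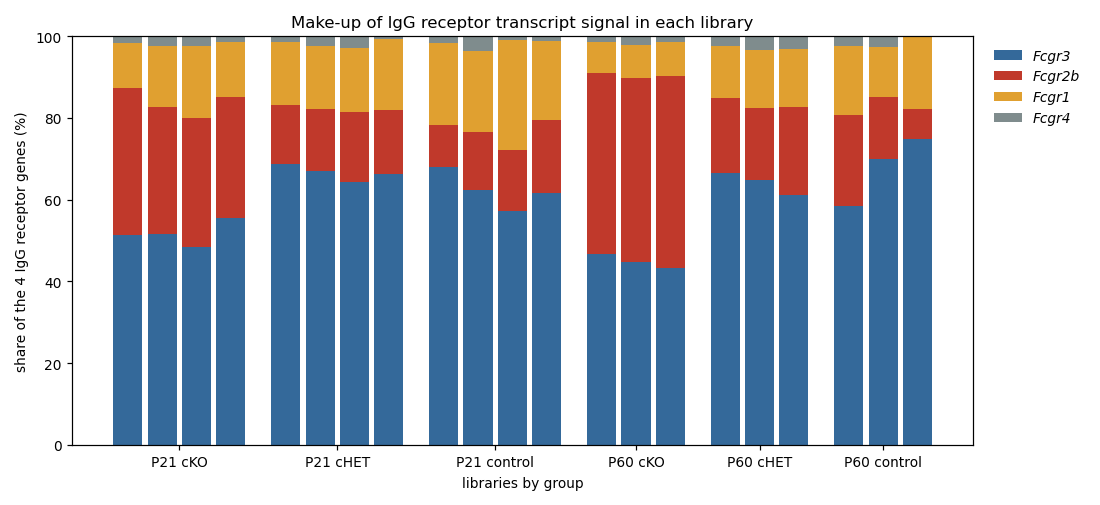
Share of each of the 4 IgG receptor genes in their summed value (%, bars run from 0 to 100), 1 bar per library, by group. The Fcgr2b segment spans 29.7 to 35.9% in P21 cKO and 44.2 to 47.1% in P60 cKO libraries, and at most 22.04% in any cHET or control library.

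The ratio of inhibitory Fcgr2b to activating Fcgr3 was 0.536 to 0.698 in P21 cKO cords, 0.213 to 0.267 in cHET cords and 0.152 to 0.293 in controls. At P60 it was 0.945 to 1.09 in cKO cords, 0.275 to 0.349 in cHET cords and 0.0992 to 0.376 in controls. On these values, and if gene length was accounted for, Fcgr2b was close to level with Fcgr3 in P60 cKO cords. It was well under Fcgr3 in every other group. Both genes lie with Fcgr4 and Fcer1g in 276 kb of chromosome 1 (chr1:170958617-171234365, GRCm38). In the GENCODE M21 transcripts 233 of 1733 31-base words of Fcgr3 (13.4%) also occur in Fcgr2b, and 8.15% of the words of Fcgr2b occur in some other gene. How reads from these stretches were divided is not given in the sources used here, so a part of either value could belong to its neighbour. Fcgr2b is also overlapped by an antisense gene (Gm38204), and the sources used here do not say whether counting used strand.

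Mertk and Axl rose in cKO cord by less than the activating Fc receptors did at P21, and were the most abundant genes of the set in cHET cords and controls. Mertk (ENSMUSG00000014361), which astrocytes make as well as microglia, was at 1815, 1995, 1704 and 1248 in P21 cKO cords, against 940.2, 1055, 987 and 675 in cHET cords and 901, 825, 602 and 566 in controls. The lowest cKO library lay above the highest of the others, and the log2 change against cHET was 0.89 ± 0.18 (SE, limma adjusted p = 0.0023), or 1.85-fold. The P60 values were 1077, 1238 and 1085 in cKO, 605, 709.7 and 639 in cHET and 402, 524 and 514 in controls, a log2 change against cHET of 0.80 ± 0.11 (limma adjusted p = 2.8e-04). Mertk is overlapped by the antisense gene Gm14011, with the same limit on strand as for Fcgr2b.

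Axl (ENSMUSG00000002602), the TAM receptor linked to inflammatory settings, was at 999, 1288, 1330.2 and 829.9 in P21 cKO cords, 399, 444, 399 and 364 in cHET cords and 423, 469, 446 and 415 in controls. Again the cKO libraries were apart, with a log2 change against cHET of 1.45 ± 0.13 (SE, limma adjusted p = 1.1e-06). In P60 cords it was at 727, 659 and 625 in cKO, 215, 277 and 239.7 in cHET and 208, 239 and 254 in controls, and the log2 change against cHET was 1.46 ± 0.11 (limma adjusted p = 3.4e-06). The Mertk to Axl ratio was 1.28 to 1.82 in P21 cKO cords, against 1.85 to 2.48 in cHET cords and 1.35 to 2.13 in controls. At P60 it was 1.48 to 1.88 in cKO cords, against 2.57 to 2.81 in cHET cords and 1.93 to 2.19 in controls. The ratio was lower in cKO than in cHET at both ages without overlap, and lower than in controls without overlap at P60 only, since the P21 cKO and control ranges overlapped.

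Cd68 (ENSMUSG00000018774), the phagocyte lysosome marker, was the most abundant gene of the set in cKO cords at both ages. It was at 2164, 2303, 2587 and 1771 in P21 cKO, against 212, 174, 227 and 207 in cHET and 148, 198, 208 and 274 in controls. Its log2 change against cHET was 3.42 ± 0.16 (SE, limma adjusted p = 3.3e-09), or 10.7-fold. At P60 it was at 1761, 1884 and 1473 in cKO, 109.7, 102 and 97.8 in cHET and 99.4, 109 and 93.8 in controls, a 16.4-fold difference from cHET (95% interval 13.9 to 19.3, limma adjusted p = 8.5e-09). The cHET and control ranges overlapped at both ages.

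The scavenger receptors were scarce in every group. Msr1 (ENSMUSG00000025044) was at 81.3, 51.7, 76.3 and 40.8 in P21 cKO cords, 6.46, 10.2, 4.27 and 0.80 in cHET cords and 22.7, 5.10, 4.87 and 2.16 in controls. The cKO libraries did not overlap the others, and the log2 change against cHET was 3.71 ± 0.68 (SE, limma adjusted p = 0.0011). That change was 3.10 without the lowest cHET library (replicate 4), and the change against control of 3.21 was 3.82 without the highest control library (replicate 1). At P60 Msr1 was at 39.0, 40.0 and 30.6 in cKO, against 0, 1.10 and 4.56 in cHET and 0.32, 0.39 and 0.71 in controls. All 3 cKO libraries lay above the other 6. Since Msr1 entered the P60 test through its cKO libraries alone, its call there adds no support. The P60 log2 change against cHET was 4.53 ± 0.76 (SE), a size set largely by the constant added before the log: it was 2.64 with 5 added and 5.82 with 0.05 added. It was 3.69 without cHET replicate 1, the library listed at 0, and 5.36 without cHET replicate 3.

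Cd36 (ENSMUSG00000002944), a fatty acid and oxidized lipid receptor that endothelial cells also make, was at 50.02, 49.3, 81.8 and 49.6 in P21 cKO cords. It was at 17.8, 24.4, 23.6 and 11.7 in cHET cords and 12.4, 14.5, 19.2 and 16.4 in controls. The cKO libraries were apart from both other genotypes at P21, with a log2 change against cHET of 1.57 ± 0.28 (SE, limma adjusted p = 9.5e-04). The P60 values were 27.5, 51.5 and 10.7 in cKO, 2.55, 15.3 and 8.19 in cHET and 6.57, 5.41 and 19.8 in controls. These ranges overlapped, and neither P60 comparison passed: the log2 change was 1.76 ± 0.72 against cHET (limma adjusted p = 0.10) and 1.42 ± 0.72 against control (limma adjusted p = 0.18). The size rested on single libraries. The change against cHET was 2.35 without cKO replicate 3 (adjusted p = 0.044), 1.24 without cKO replicate 2 (adjusted p = 0.32) and 1.11 without cHET replicate 1 (adjusted p = 0.32), and the change against control was 0.90 without cKO replicate 2 (adjusted p = 0.48).

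**Figure D3:**
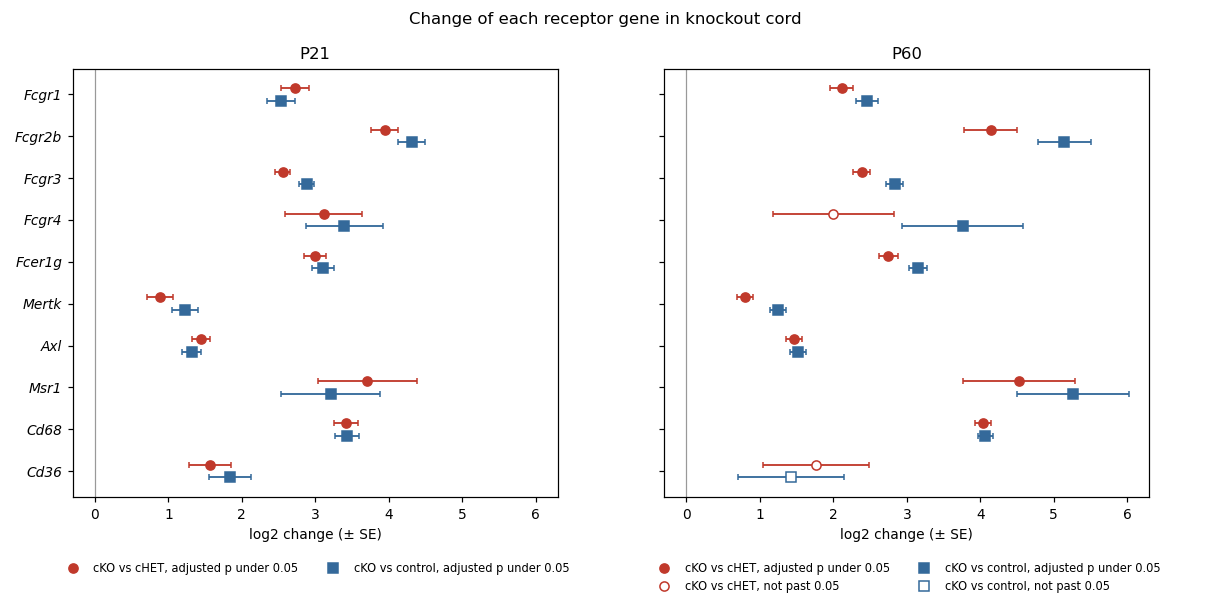
Log2 change (± SE) of each receptor gene in cKO against cHET (circles) and against control (squares), at P21 (left) and P60 (right); filled symbols passed an adjusted p of 0.05 by limma. Changes against cHET span 0.89 to 3.94 at P21 and 0.80 to 4.53 at P60, with Mertk lowest at both ages. The 4.53 is that of Msr1, which was tested at P60 through its cKO libraries alone, so its filled symbols there add no support. The largest P60 change against cHET of the other genes was 4.14 for Fcgr2b.

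The order of levels within a library set also differed by genotype. In cHET and control cords at both ages Mertk was the most abundant gene of the set, clear of Axl, and Axl came next, clear of Fcgr3 except in P21 cHET cords, where their ranges overlapped. In P21 cKO cords the order was Cd68, Fcgr3, Mertk and Fcer1g, whose neighbouring ranges overlapped, then Fcgr2b and Axl, which overlapped each other. Fcgr1 followed, clear of Axl and of Fcgr4. In P60 cKO cords Cd68 was clear of Mertk, and Mertk of Fcgr2b, while Fcgr2b, Fcgr3 and Fcer1g overlapped as neighbours. Fcgr4, Msr1 and Cd36 were the 3 lowest genes in each group, and their neighbouring ranges overlapped in all of them.

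The pan-myeloid genes Csf1r, Spi1, Irf8, Itgam, Cx3cr1, Aif1 and Laptm5 moved with the receptors: all 7 were higher in cKO than in cHET cords at both ages. Their mean log2 level was 10.2 to 10.7 in P21 cKO cords, against 8.15 to 8.44 in cHET cords and 8.23 to 8.36 in controls, a difference of 2.18 from cHET, and the P60 difference from cHET was 1.94. Relative to this panel in the same library, 5 receptor genes (Fcgr2b, Fcgr3, Fcer1g, Msr1 and Cd68) were higher in every P21 cKO library than in every cHET library, where 0.589% of all genes tested were. At P60 Fcgr1, Fcgr2b, Fcgr3, Fcer1g and Cd68 were, against 1.13% of all genes. Msr1 was too, but as it was tested at P60 through its cKO libraries alone this adds no support. The panel-relative differences from cHET at P21 and P60 were 1.77 and 2.20 log2 units for Fcgr2b, 1.24 and 2.09 for Cd68, 1.53 and 2.59 for Msr1, 0.82 and 0.81 for Fcer1g, and 0.38 and 0.45 for Fcgr3. Fcgr1 differed by 0.55 at P21, with overlap, and by 0.17 at P60. Mertk was lower relative to the panel, with differences of -1.29 at P21 and -1.14 at P60, and Axl with -0.73 and -0.48, without overlap, as were 90.9% of all genes at P21 and 93.5% at P60. Fcgr4 and Cd36 overlapped at both ages in this comparison. Against controls 4 receptor genes lay above without overlap at P21 and 7, Msr1 included, at P60, where 0.667% and 1.13% of all genes did. The part that the number of myeloid cells has in any of these changes was not tested.

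**Figure D4:**
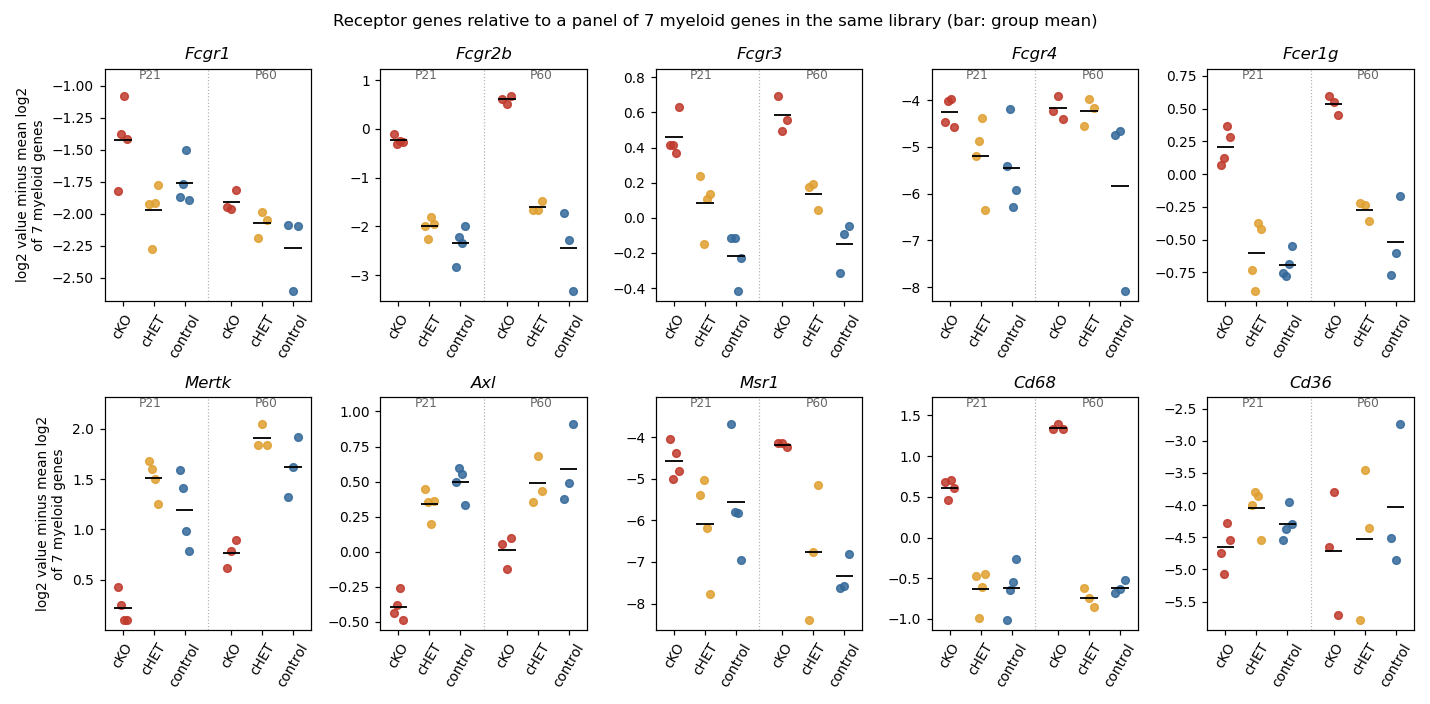
Log2 value of each receptor gene minus the mean log2 of 7 myeloid genes in the same library, by group; points are libraries and bars are group means. Fcgr2b and Cd68 sit higher in cKO than in cHET and control libraries at both ages, and Mertk and Axl sit lower.

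Markers of the cells that could carry these receptors were read beside them. Among 8 homeostatic microglia markers 4 were higher and 2 lower in cKO than in cHET cords at P21, and 3 were higher and 5 lower at P60. The shares of all genes tested that bear on this and the following lists were 12.6% higher and 9.97% lower at P21, and 13.4% higher and 11.5% lower at P60. Gpr34 (1.56 at P21 and 1.97 at P60, log2) and Olfml3 (1.93 and 1.48) were higher at both ages, as was P2ry13 (0.83 and 0.82), while Siglech was higher at P21 (0.62) and lower at P60 (-0.87). The other 4, named after their values were seen, were lower at P60: Tmem119 by a log2 change of -1.76, P2ry12 by -1.15, Slc2a5 by -1.06 and Sall1 by -0.42. At P21 P2ry12 (-0.43) and Slc2a5 (-0.70) were lower, and Tmem119 (-0.39) and Sall1 (-0.12) did not pass. Their summed level was 6323 to 7942 in P21 cKO cords, against 5816 to 5998 in cHET cords and 5766 to 6366 in controls, and 2181 to 2640.3 in P60 cKO cords, against 2426 to 2652 in cHET cords and 2351 to 2704 in controls. None of the 8 was at 0 in any group.
Border macrophage markers summed to 240.5 to 298 in P21 cKO cords, against 143 to 255 in cHET cords and 186 to 249 in controls, and to 226 to 277 in P60 cKO cords, against 90.6 to 134 in cHET cords and 77.5 to 127 in controls. Of those tested 1 of 7 was called at P21 and 1 of 6 at P60, in both cases Ms4a7 (log2 change 2.92 and 4.05), while F13a1 (0.27 and 0.37) was not. Without Ms4a7 the border macrophage sums in cKO cords overlapped those of cHET cords at both ages and of controls at P21, but lay just above those of P60 controls, at 187 to 243 in P21 cKO cords, against 136 to 251 in cHET cords and 172 to 231 in controls, and at 125 to 128 in P60 cKO cords, against 81.1 to 128 in cHET cords and 72.8 to 123 in controls. Monocyte and neutrophil markers summed to 252 to 449 in P21 cKO cords, against 93.6 to 151 in cHET cords and 94.0 to 161 in controls, and to 138 to 208 in P60 cKO cords, against 28.8 to 76.0 in cHET cords and 25.9 to 57.7 in controls. Itgal was the 1 called gene of 6 tested at P21 and of 3 at P60 (log2 change 2.20 and 2.81). Ly6g was listed at 0 in every P21 cHET and control library and in every P60 cKO and cHET library. It was not at 0 in every P21 cKO library or in every P60 control library. Without Itgal, which lymphocytes also express, the sums of this list were 43.1 to 71.9 in P21 cKO cords, against 39.8 to 79.2 in cHET cords and 44.2 to 102 in controls, and 15.2 to 17.5 in P60 cKO cords, against 18.3 to 31.7 in cHET cords and 14.8 to 18.0 in controls. The monocyte genes Ccr2 and Ly6c2, named after their values were seen, were not called at either age, and at P60 Ccr2 averaged 4.58 in cKO and 6.61 in cHET and Ly6c2 7.44 and 8.27. Endothelial markers gave 0 genes higher and 2 lower of 7 at P21 and 0 called of 7 at P60, and astrocyte markers gave 4 higher of 8 at P21 and 2 of 8 at P60. Of 8 oligodendrocyte markers 2 were higher and 4 lower at P21 and 2 higher and 6 lower at P60, of 8 neuron markers 6 and 5 were lower, and of 5 erythrocyte markers 0 were called at either age. The part of these cell types in the receptor values was not tested.

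Of 15 Fc receptor signalling genes tested all 15 were higher in cKO than in cHET cords at P21 and at P60, against 12.6% and 13.4% of all genes. Their median log2 changes were 2.08 and 1.89, beside differences of 2.18 and 1.94 in the mean of the myeloid panel. Tyrobp, the DAP12 adaptor that pairs with many activating myeloid receptors, rose by 3.18 ± 0.12 at P21 (SE, limma adjusted p = 6.4e-10) and 3.29 ± 0.17 at P60. Vav1, a guanine nucleotide exchange factor that drives actin at the phagocytic cup, rose by 2.41 and 2.18. Blnk, an adaptor of Syk signalling, rose by 2.41 and 2.69, and Plcg2, the phospholipase that releases calcium, by 1.57 and 1.199. Of the other Fc receptor family genes 4 of 7 were higher at P21 and 2 of 6 at P60. Fcrls, a microglial Fc receptor-like scavenger gene, rose by 2.53 and 3.01. Fcrl1, otherwise a B cell gene, rose by 2.25 and 4.26, and its mean level was 31.1 in P21 cKO against 6.95 in cHET and 49.5 in P60 cKO against 2.29 in cHET. Fcgrt, the neonatal Fc receptor that recycles IgG, rose by 0.25 at P21 and Trim21, the cytosolic antibody receptor, by 0.87, and at P60 neither passed (0.10 and 0.34).

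The list of immunoglobulin genes, whose IgG heavy chains encode the part of the antibody that these receptors bind, held no gene called higher in cKO than in cHET. These are RNA values of the cord, IgG protein was not measured, and of 12 listed genes several were not tested. Of 6 tested at P21, 0 were called by limma, and of 4 tested at P60, 1 was called, lower. That gene was Ighm, the heavy chain of IgM, which is not the ligand of these receptors, and it had a mean of 560.0 ± 212 in P60 cKO and 1283 ± 11.2 in cHET (SD, n = 3 each), a log2 change of -1.27 ± 0.21 (SE, limma adjusted p = 9.6e-04). At P21 Ighm averaged 1665 in cKO and 2181 in cHET (log2 change -0.47, limma adjusted p = 0.15). Of the IgG heavy chains, Ighg3 averaged 21.7 in P21 cKO and 27.2 in cHET and Ighg2c at 11.8 and 10.5, and Jchain differed by 0.37 at P21 and 0.59 at P60, neither past the threshold. Of 8 lymphocyte and plasma cell markers tested at P21 1 was called, Cd79b (log2 change 1.91), and of 6 tested at P60 0 were. Their summed level was 161 to 165 in P21 cKO cords, against 109 to 169 in cHET cords and 116 to 143 in controls.

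Among TAM receptor partners 3 genes of 9 tested were higher and 2 lower at P21, and 4 of 8 were higher and 1 lower at P60. Pros1, which encodes the ligand protein S, rose by 1.32 ± 0.10 at P21 (SE, limma adjusted p = 1.5e-07) and 1.34 ± 0.12 at P60 (limma adjusted p = 1.3e-05). Socs3, a cytokine signalling inhibitor, rose by 2.02 and 1.87. Lgals3, a galectin that also bridges to Mertk, rose by 4.87 at P21 with a mean of 59.9 in cKO against 7.06 in cHET. That log2 change is larger than these means alone give, so its size is uncertain. Lgals3 was not tested at P60, where it was listed at 0 in every control library. Tub, a bridging molecule, fell by 0.23 and 0.20. Named after their values were seen, Gas6 averaged 8353 in P21 cKO and 7805 in cHET (log2 change 0.10, limma adjusted p = 0.20) and was higher at P60, at 3434 in cKO and 2998 in cHET (log2 change 0.20, limma adjusted p = 0.035). At P21 the third TAM receptor Tyro3 averaged 1020.5 and 997 (0.03, limma adjusted p = 0.86).

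The other uptake receptors divided. Of 21 tested 11 were higher and 3 lower in cKO than in cHET cords at P21, and 11 were higher and 4 lower at P60. Trem2, a microglial lipid receptor, rose by 3.28 and 3.52, C3ar1, the receptor of complement C3a, by 3.74 and 3.71, Cd14, a lipopolysaccharide co-receptor, by 2.76 and 2.46, and Colec12, a collectin scavenger receptor, by 1.99 and 1.67. The 4 uptake receptors lower at P60, named after their values were seen, were Itgb3 (log2 change -1.18), Megf10 (-0.67), Itgav (-0.34) and Adgrb1 (-0.20). Engulfment machinery gave 7 higher of 14 at P21 and 8 of 14 at P60, with 0 lower at either age, led by Dock2 (2.85 and 2.57), Myo1f (2.88 and 2.89), Arpc1b (0.98 and 2.11) and the lipid exporter Abca1 (1.65 and 2.84). Phagosome and oxidase genes gave 11 higher of 14 at P21 and 12 at P60, among them the tetraspanin Cd63 (1.32 and 1.58), the oxidase subunits Cyba (2.89 and 3.04) and Ncf1 (1.82 and 1.57), and the proton channel Hvcn1 (2.82 and 3.19). Genes of inhibitory or do-not-eat signals gave 6 higher and 1 lower of 9 at P21 and 5 higher of 8 at P60. Of these Lilrb4a rose by 6.13 and 5.23, Cd22, an inhibitory lectin, by 4.91 and 4.64, Sirpa, the receptor of Cd47, by 0.84 and 0.83, and Cd200r1 by 3.11 and 2.87.

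The genotype effects at the 2 ages were compared by their interaction over all 21 libraries. None of the 10 genes was called by limma in the age difference of cKO against cHET or against control, where 2.82% and 3.93% of all genes were; 2 and 1 of the 10 had an unadjusted p under 0.05, against 14.3% and 16.0% of all genes. The 2 were Fcgr1, whose change against cHET was 0.62 log2 units smaller at P60 (95% interval of the difference -1.16 to -0.07, limma adjusted p = 0.27), and Cd68, whose change was 0.62 larger (0.16 to 1.08, limma adjusted p = 0.17). For Fcgr2b the difference was 0.20 (-0.66 to 1.05) and for Mertk -0.09 (-0.60 to 0.42). The intervals of Fcgr4 (-3.20 to 0.97), Msr1 (-1.38 to 3.02) and Cd36 (-1.36 to 1.75) were too wide to place these genes.

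Loss of 1 Tardbp allele with Cre was compared with control at each age. None of the 10 genes was called by limma at P21 or P60, where 0.0111% and 0.0178% of all genes were, and 1 and 5 of the 10 had an unadjusted p under 0.05, against 7.14% and 5.42% of all genes. At P60 Fcgr2b, Fcgr3, Fcgr4, Fcer1g and Mertk lay higher in every cHET library than in every control library, where 6.17% of all genes did. The differences were 1.0 ± 0.36 log2 units for Fcgr2b, 0.45 ± 0.12 for Fcgr3, 0.40 ± 0.13 for Fcer1g and 0.45 ± 0.11 for Mertk (SE, limma adjusted p = 0.88, 0.63, 0.78 and 0.61). For Fcgr4 the difference was 1.76 ± 0.82 (limma adjusted p = 0.92). The sizes for the 2 scarcer receptors rested on control replicate 3, without which they were 0.47 for Fcgr2b and 0.54 for Fcgr4. Cd68 and Axl differed by 0.04 and 0.06 and their ranges overlapped. At P21, where sexes were balanced, 1 gene (Fcgr3, 0.33 ± 0.10, limma adjusted p = 0.49) was higher in every cHET than in every control library, against 3.12% of all genes. At P60 heterozygosity cannot be told apart from sex and age in this comparison. At both ages it also cannot be told apart from the presence of Cre or from the lower Cnp level of cHET cords. Cnp was at 44181 to 49396 in P21 cHET cords and 76936 to 88022 in P21 controls. At P60 it was at 8720 to 8892 in cHET cords and 14546 to 15611 in controls.

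The sexes of P21 mice were also compared, a split chosen after the data were seen. The genotype effect in each sex was a contrast within 1 fit of all P21 libraries, controls included, with a shared spread. Log2 changes against cHET spanned 0.85 (Mertk) to 3.98 (Fcgr2b) in males and 0.92 (Mertk) to 4.27 (Msr1) in females. Msr1 missed the threshold in males (log2 change 3.15, limma adjusted p = 0.060). The share of all genes called within a sex was not worked out, so no count of receptor genes called is given. None of the 10 was called for a difference between the sexes in the genotype effect, where 1 of 17989 genes was (0.00556%), and 2 had an unadjusted p under 0.05, against 6.53% of all genes. Fcgr1 changed by 3.10 in males and 2.35 in females, a difference of 0.75 ± 0.25 (SE, limma adjusted p = 0.61), and Axl by 1.64 in males and 1.26 in females, a difference of 0.38 ± 0.16 (limma adjusted p = 0.73). Each sex had 2 mice per genotype.

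For each receptor the gene with the nearest profile was found among 16568 genes tested at both ages, by root mean square difference in log2 units over 21 libraries after centring within each age. Fcgr3 was nearest to the cathepsin gene Ctsz (0.13), Fcer1g to the complement gene C1qc (0.14), Fcgr1 to Plek (0.19) and Cd68 to Trem2 (0.21). Axl was nearest to Tgfbr2 (0.12) and Mertk to Cmtm3 (0.19). No gene came as near to Fcgr2b as these: its nearest gene was the macrophage gene Mpeg1 at 0.38, which changed by 3.79 log2 units against cHET at P21 and 3.48 at P60. For the scarce genes the distances were larger still, with Cd36 and Snx20 at 0.58, Fcgr4 and Ccl4 at 0.75 and Msr1 and Slc28a2 at 0.82. Within the set Fcgr3 and Fcer1g (0.23), Fcgr1 and Fcgr3 (0.29) and Mertk and Axl (0.31) were the closest pairs. These distances describe the same libraries that share genotype and carry no test.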

How the data were processed

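Bulk RNA-seq of 21 mouse spinal cords was read from the deposited per-gene signal, which the authors gave as normalized scaled reads per base. Per the submitters' processing notes, kallisto 0.43.0, sleuth 0.28.1 and GRCm38 were used, without their roles or the annotation release. The authors' deposited tables hold effects on the natural log scale, p-values and q-values, and their q-value served as an alternative. Means computed here from the libraries equalled those of the authors to within 1e-06 for all 10 receptor genes at P21 and for the 8 that were listed at P60.

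Values were taken to log2(value + 0.5) and fold changes are on that scale. For low genes their size depends on the constant added and on libraries near 0, and can be too small or too large. Genes entered the test with values of 5 or more in 4 P21 or 3 P60 libraries. Each age had its own fit of all 3 genotypes with limma 3.58.1 (R 4.3.3, trend), 2-sided, adjusted by Benjamini and Hochberg over all genes tested. Age differences are interactions in 1 fit of the 6 groups. The fit was also run on simulated data in which far fewer genes changed than were called in cKO here. That run cannot give the rate of false calls in these data. With 3 or 4 mice per group, their number limits the precision.

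The receptor genes and all gene lists were chosen with earlier results of these data known. Besides the receptor genes, up to 4 genes per list with the smallest p in P21 cKO against cHET were named. Alternatives were 2 other pseudocounts, 2 other filters, 2 scalings, sex as a covariate at P21, only the compared groups, each library left out, and P60 control 1 with P60 cHET 3 left out together. A planned gene of the myeloid panel was left out and is not reported here.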

Additional observations from a re-analysis of the deposited data

Results flagged for a closer look

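In 3 of 30 sets of 4 P21 libraries (10 genes in 3 genotypes), 1 library stood far from the other 3 by Dixon's criterion, which chance alone does in about 1 set in 20. Cd36 was 81.8 in 1 cKO library (replicate 3), against 49.3 to 50.02 in the other 3. Without it the log2 change was 1.39 against cHET (limma adjusted p = 0.0042) and 1.66 against control (limma adjusted p = 0.0011). Fcgr2b was 99.6 in 1 cHET library (replicate 3), and without it the log2 change of cKO against cHET was 4.06 (limma adjusted p = 1.0e-08). Msr1 was 22.7 in 1 control library (replicate 1), and without it the log2 change of cKO against control was 3.82 (limma adjusted p = 6.4e-04). None of these was in the P21 cHET library with forebrain genes.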

How the results depend on the processing

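The number of receptor genes called stayed within 1.5 times its value in 174 of 175 alternative fits. The exception was the age difference of cKO against control without P21 control replicate 1, where 1 gene was called (Cd68, log2 difference 0.79, limma adjusted p = 0.025); over the fits that left out 1 library that count was 0 to 1. Against cHET at P60 the count was 7 to 9 over all alternatives. Fcgr4 at P60 against cHET passed with 5 added before the log (1.59, adjusted p = 0.0037), with only the compared groups fitted (2.0, adjusted p = 0.0018) and without control replicate 3, and its adjusted p was 0.083 to 0.36 in the other alternatives. The age difference of Fcgr1 for cKO against control, -0.08, was -0.24 to 0.09 when 1 library was left out: 0.02, 0.09 and 0.038 without P21 cKO replicate 2, P21 cKO replicate 3 and P60 control replicate 1, and 0.038 without P60 control replicate 1 and P60 cHET replicate 3 together; it was not past the threshold in any of these and the cause was not tested. Of 1021 alternative values of single receptor genes 1011 kept their direction and their side of the threshold. With a mean of at least 50 required, Fcgr4, Msr1 and Cd36 were not tested. Msr1 at P60 could not be fitted without any 1 of its cKO libraries, since too few libraries then reached 5. Genes called for cHET against control were few and moved most: 2 at P21, against 1 to 26 when a library was left out and 35 by the q-value of the authors' deposited table, and 3 at P60, against 1 to 4 and 14. The other scalings moved the median of all genes by at most 0.07 log2 units in size (-0.07). No paired analysis was possible because the groups share no replicate numbers in the labels, each library being its own mouse. Depth is unknown, so for Msr1, Fcgr4 and Cd36 low values carry an error that could not be given.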
